A study of Mus musculus with 26 samples.

Results

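The 7 genes described here are those of the mouse MHC class II presentation machinery that the study's gene table holds under the symbols H2-Aa, H2-Ab1, H2-Eb1, H2-DMa, H2-DMb1, Cd74 and Ciita. They were taken by symbol from a table of 40413 genes, and all 7 were among the 15543 genes abundant enough to be tested. Left ventricles came from adult mice of 2 inbred strains, the normotensive BPN/3J and the hypertensive BPH/2J, and their polyadenylated RNA was sequenced. The mice had been given vehicle or the formyl peptide receptor agonist Cmpd17b (50 mg/kg/day, into the peritoneum, for 28 days). BPN_vehicle (BPN/3J on vehicle) had 7 libraries, BPN_Cmpd17b (BPN/3J on Cmpd17b) had 5, BPH_vehicle (BPH/2J on vehicle) had 7 and BPH_Cmpd17b (BPH/2J on Cmpd17b) had 6, each from a separate mouse. No transgene or engineered allele is named for any group, and the strains differ across the genome, so a strain difference cannot be told apart from any other inherited difference between them.

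A seventh BPH_Cmpd17b library, replicate 7, was left out because its RNA had the profile of kidney. Its Myh6, a heart muscle myosin, was 12.4 CPM (the count scaled to the library's total) against 13440 to 23510 CPM in the other 25 libraries. Its Kap, a transcript of the proximal tubule of the kidney, was 18930 CPM against 0.589 to 124.8 CPM elsewhere. The 25 libraries held 25476100 to 48648200 counts each, and 6 cardiomyocyte markers summed to between 37900 and 56300 CPM in them. The labels put 20 of the 25 in batch 1 and 5 in batch 2, with none of BPN_Cmpd17b in batch 2.

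MHC class II molecules are pairs of an alpha and a beta chain that carry peptides of ingested protein to the surface of antigen presenting cells, where CD4+ T cells read them. H2-Aa and H2-Ab1 encode the 2 chains of the I-A molecule, and H2-Eb1 encodes the beta chain of I-E. CD74, the invariant chain, holds the new class II molecule in shape and fills its groove until proteases cut it down to a short remnant, and H2-DM, made of the products of H2-DMa and an H2-DMb gene, then exchanges that remnant for peptide. CIITA does not bind DNA itself: it sits on RFX, CREB and NF-Y proteins bound at the X and Y boxes of class II promoters and switches the whole set on, in dendritic cells and B cells constantly and in macrophages after interferon gamma. In the heart, class II is known chiefly from resident and recruited macrophages and from dendritic cells. Since whole ventricle was measured, fewer cells of a type and less RNA per cell cannot be told apart in any result below.

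The X and Y boxes are the DNA that the shared regulation rests on, so the promoters of the members are shown where the tables used here hold them. The table of RefSeq promoters on build GRCm38.p6, from 250 bases before to 50 after each gene's start, held 4 of the 7 members: H2-Aa, H2-Eb1, H2-DMa and H2-DMb1. H2-Ab1, Cd74 and Ciita had no entry. The 60 bases around the Y box are given 5′ to 3′ on the gene's strand, with the Y box (ATTGG) and, where found, the 11-base X1 core in capitals. H2-DMb1 lies at chr17:34153085-34153144 on the plus strand, H2-Aa at chr17:34287857-34287916 on the minus strand and H2-Eb1 at chr17:34305763-34305822 on the plus strand, all just before the start of the gene.
H2-DMb1: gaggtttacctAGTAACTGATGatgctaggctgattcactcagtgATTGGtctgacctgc
H2-Eb1: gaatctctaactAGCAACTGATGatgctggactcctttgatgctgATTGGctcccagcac
H2-Aa: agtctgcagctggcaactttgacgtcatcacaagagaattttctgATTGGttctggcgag
The X1 core began 34 bases before the Y box in H2-DMb1 and 33 bases before it in H2-Eb1. Searched on both strands, the X1 core was in 1.18% and the Y box in 37.4% of the 32851 promoters of the table, and an X1 core followed by a Y box within 60 bases was in 11 (0.0335%). These 11 included H2-Eb2, another class II gene, beside H2-DMb1 and H2-Eb1, and 8 genes that are not of class II and lie on other chromosomes, such as Aptx and Mylk4. H2-Aa held the Y box without these X1 letters. Of the 2 start sites listed for H2-DMa, 1 had neither box and the other had a Y box without the X1 core. The X2 core (TGNGTCA), in 15.4% of all promoters, was matched before that second start of H2-DMa and in none of H2-DMb1, H2-Eb1 and H2-Aa. The H2-Aa bases above include tgacgtca, which is close to these letters but which the X2 pattern cannot match. A missing match to these patterns therefore does not show that an X box is absent. These matches describe letters in the reference genome, and the promoter sequences of BPN/3J and BPH/2J were not analysed here.

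**Figure D1:**
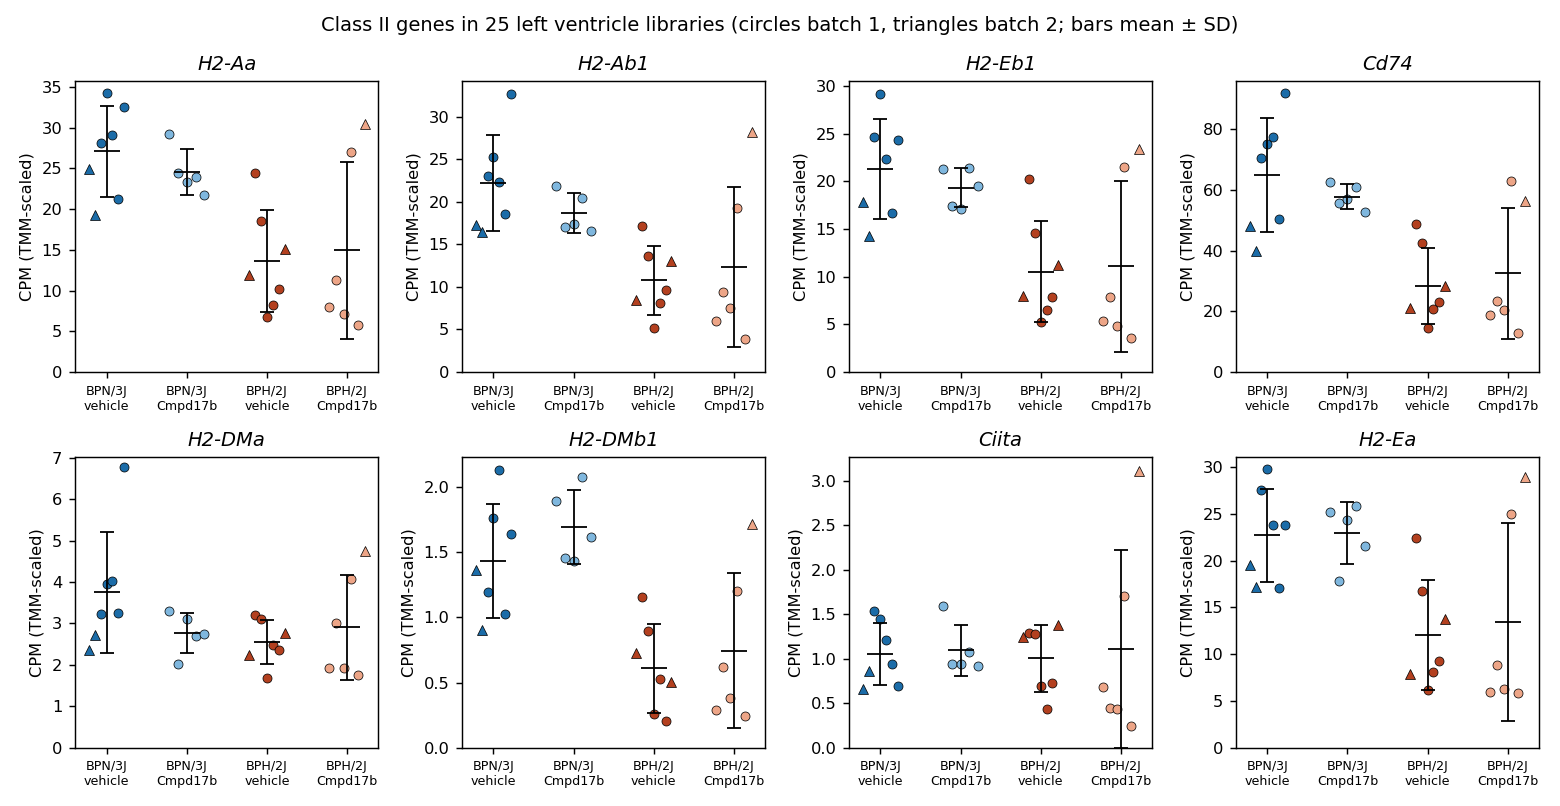
CPM of each class II gene in every library, 1 panel per gene, with points for single mice and bars for the group mean ± SD in BPN_vehicle (n = 7), BPN_Cmpd17b (n = 5), BPH_vehicle (n = 7) and BPH_Cmpd17b (n = 6). For Cd74 the 12 BPN/3J libraries sit between 39.9 and 91.9 CPM, while 9 of the 13 BPH/2J libraries sit below all of them.

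Under vehicle, Cd74, both I-A chains and H2-DMb1 were lower in the hypertensive strain. They were called at an adjusted p under 0.05 with log2 differences between -1.002 and -1.25, while H2-Eb1, H2-DMa and Ciita did not pass the test. In all, 4 of 7 members were called lower and none higher. Of all 15543 genes tested, 18.9% were called in this comparison with 9.73% called lower and 9.16% called higher in BPH/2J. The median log2 difference of the members was -1.02, and that of all genes was -0.000756.

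Cd74, the invariant chain, was measured at 48.3, 39.9, 70.7, 75.1, 77.6, 50.6 and 91.9 CPM in BPN_vehicle. In BPH_vehicle its levels were 21.0, 48.9, 42.4, 14.6, 20.9, 22.9 and 28.4 CPM. Replicates 2 and 3 of BPH_vehicle reached the lower end of BPN_vehicle, and 5 of the 7 BPN_vehicle libraries lay above every BPH_vehicle library. The group means were 64.8 ± 18.9 CPM (SD, n = 7) and 28.4 ± 12.6 CPM (n = 7). The log2 difference, BPH/2J minus BPN/3J, was -1.18 ± 0.329 (SE; edgeR quasi-likelihood test with Benjamini-Hochberg adjustment over all genes, adjusted p = 0.0131). Within batch 1 alone it was -1.29 (edgeR adjusted p = 0.0228).

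H2-Ab1, the I-A beta chain, was measured at 17.3, 16.5, 23.1, 25.2, 22.4, 18.6 and 32.7 CPM in BPN_vehicle. Levels in BPH_vehicle were 8.47, 17.1, 13.7, 5.19, 8.12, 9.69 and 13.1 CPM. Only replicate 2 of BPH_vehicle overlapped the normotensive group. The difference was -1.06 ± 0.331 (edgeR adjusted p = 0.0267) and in batch 1 alone -1.18 (edgeR adjusted p = 0.0207). The call ended when BPN_vehicle replicate 7 or BPH_vehicle replicate 1, 4 or 5 was left out, or when genes of low counts were kept in the adjustment (edgeR adjusted p = 0.0508).

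H2-Aa, the I-A alpha chain, was measured at 24.98, 19.3, 28.1, 34.2, 29.1, 21.3 and 32.6 CPM in BPN_vehicle. In BPH_vehicle it was at 11.9, 24.5, 18.5, 6.74, 8.22, 10.2 and 15.1 CPM, again with replicate 2 the highest. The difference was -1.002 ± 0.336 (edgeR adjusted p = 0.0402) with a 95% interval of -1.70 to -0.304. This was the called member closest to the threshold. Its call ended in batch 1 alone (-1.09, edgeR adjusted p = 0.0618), with all 26 libraries (edgeR adjusted p = 0.0519), with no filter on low counts (edgeR adjusted p = 0.0735), and in 9 of the 25 fits that each left out 1 library: BPN_vehicle replicates 3, 4, 5 and 7 and BPH_vehicle replicates 1, 4, 5, 6 and 7.

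H2-Eb1, the I-E beta chain, was measured at 17.8, 14.2, 24.7, 29.2, 22.3, 16.7 and 24.4 CPM in BPN_vehicle. Levels in BPH_vehicle were 8.02, 20.3, 14.6, 5.21, 6.56, 7.92 and 11.3 CPM. Here 4 of 7 BPN_vehicle libraries lay above all BPH_vehicle libraries, since replicates 2 and 3 of BPH_vehicle both overlapped. The difference, -1.02 ± 0.374, was of the same size as that of the I-A chains but did not pass the test (edgeR adjusted p = 0.062). It passed in 3 of 11 alternative settings: with only the 2 groups in the fit (edgeR adjusted p = 0.00877), with limma voom and quality weights (adjusted p = 0.00756) and with DESeq2 (adjusted p = 0.0326). In batch 1 alone it did not pass (-1.10, edgeR adjusted p = 0.0882). Of the 25 fits that each left out 1 library, it passed in 5.

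H2-Ea, which encodes the I-E alpha chain and is no member of the set, was at 17.1 to 29.8 CPM in BPN_vehicle, with a median of 23.8 CPM. The BPH_vehicle libraries had 6.13 to 22.5 CPM, with a median of 9.23 CPM. The H2-Ea gene of C57BL/6, the strain of the reference genome, is known to lack part of its promoter and not to be transcribed, so transcription of H2-Ea sets both strains studied here apart from the reference strain. The H2-Ea difference was -0.91 ± 0.358 and did not pass the test (edgeR adjusted p = 0.0821). Class II genes are among the most variable between mouse strains, and how many reads of either strain were lost against the C57BL/6 reference was not tested.

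The genes for the chains of the peptide exchanger H2-DM fell on different sides of the threshold, and their ratio is tested further on. H2-DMb1, a beta chain gene, was measured at 1.37, 0.904, 1.20, 1.77, 2.13, 1.02 and 1.64 CPM in BPN_vehicle. The BPH_vehicle libraries had 0.723, 1.15, 0.894, 0.255, 0.530, 0.202 and 0.505 CPM, and 5 of 7 BPN_vehicle libraries lay above all of these. The difference was -1.25 ± 0.373 (edgeR adjusted p = 0.0176) and held without any 1 of the 25 libraries. H2-DMb2 is a near-identical neighbour, and the counts of both genes lay more than 0.01 from a whole number in 11 of 25 libraries, so some reads were counted in fractions. Summed, the 2 genes gave -1.24 ± 0.302 (edgeR adjusted p = 0.00343), a calculation chosen after the values were seen. H2-DMa, the alpha chain gene, was measured at 2.35, 2.71, 3.22, 3.95, 4.04, 3.24 and 6.77 CPM in BPN_vehicle. The BPH_vehicle libraries had 2.24, 3.201, 3.12, 1.69, 2.49, 2.36 and 2.76 CPM, so the groups overlapped from 2.35 to 3.201 CPM. Its difference of -0.56 ± 0.231 did not pass the test (edgeR adjusted p = 0.096). In batch 1 alone it was -0.72 and passed (edgeR adjusted p = 0.0445), the only 1 of 11 alternative settings in which it did. Of the 25 fits that each left out 1 library, it passed only without BPN_vehicle replicate 1.

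Ciita, the master switch, was measured at 0.666, 0.868, 1.53, 1.45, 1.21, 0.939 and 0.692 CPM in BPN_vehicle. In BPH_vehicle it was at 1.24, 1.29, 1.28, 0.690, 0.431, 0.727 and 1.38 CPM. The groups overlapped over most of their range. The difference was -0.15 ± 0.374 (edgeR adjusted p = 0.839), with a 95% interval of -0.915 to 0.621, so a difference of the size seen for Cd74 lay outside the interval. At about 1 CPM the gene rests on far fewer reads than Cd74, though its SE equalled that of H2-Eb1 (0.374). Differences inside this interval could not be told from 0, and the part of depth in this was not tested.

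**Figure D2:**
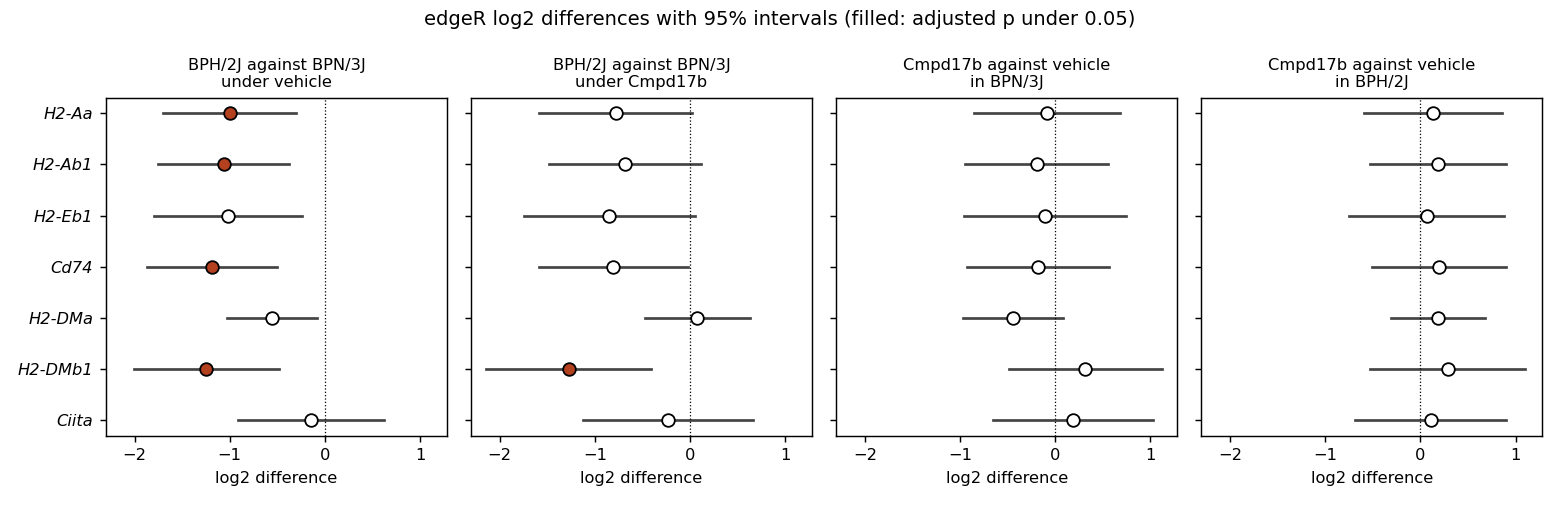
edgeR log2 differences of the 7 genes (points) with 95% intervals (lines) in the strain comparison under vehicle and under Cmpd17b and in the drug comparison in BPN/3J and BPH/2J, with filled points for an adjusted p under 0.05. There are 4 filled points in the first panel, 1 in the second and none in either drug panel, where every interval includes 0.

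Between mice given Cmpd17b, the strain difference was carried by fewer calls and wider intervals. Of the 7 members only H2-DMb1 was called lower in BPH/2J, beside 14.1% of all genes called in either direction, 6.65% lower and 7.48% higher. The median log2 difference of the members was -0.783, against 0.00941 for all genes. The strain differences under vehicle and under Cmpd17b come from different mice, and the test of the gap between them is the interaction given with the drug effects.

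Cd74 was at 62.6, 55.8, 57.1, 61.0 and 52.7 CPM in BPN_Cmpd17b. In BPH_Cmpd17b it was at 18.7, 23.5, 20.6, 62.9, 12.8 and 56.5 CPM. The 5 BPN/3J mice lay close together, while the BPH/2J mice fell into 4 low values and 2 values, in replicates 4 and 6, at the level of the normotensive strain. The difference was -0.81 ± 0.378 (edgeR adjusted p = 0.184). It was called without replicate 4 or without replicate 6 of BPH_Cmpd17b, and its value over all fits that left out 1 library ran from -1.17 to -0.62.

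The I-A and I-E chains followed the same split. H2-Aa was at 29.2, 24.4, 23.4, 23.99 and 21.8 CPM in BPN_Cmpd17b and at 7.95, 11.3, 7.18, 27.0, 5.78 and 30.4 CPM in BPH_Cmpd17b, with a difference of -0.78 ± 0.388 (edgeR adjusted p = 0.216). H2-Ab1 was at 21.9, 17.1, 17.4, 20.4 and 16.6 CPM in BPN_Cmpd17b and at 6.03, 9.42, 7.53, 19.2, 3.91 and 28.2 CPM in BPH_Cmpd17b, with a difference of -0.68 ± 0.384 (edgeR adjusted p = 0.289). H2-Eb1 was at 21.3, 17.5, 17.1, 21.4 and 19.5 CPM in BPN_Cmpd17b and at 5.35, 7.85, 4.87, 21.5, 3.52 and 23.5 CPM in BPH_Cmpd17b, with a difference of -0.85 ± 0.434 (edgeR adjusted p = 0.234). In each of these 3 genes the high BPH_Cmpd17b libraries were replicates 4 and 6, and the other 4 lay below all of BPN_Cmpd17b. Limma voom, which gave replicate 6 a quality weight of 0.33, called all 3 and Cd74 (adjusted p 0.002 to 0.00362).

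H2-DMb1 was at 1.89, 1.46, 1.43, 2.08 and 1.62 CPM in BPN_Cmpd17b. In BPH_Cmpd17b it was at 0.286, 0.617, 0.384, 1.21, 0.247 and 1.72 CPM. Replicate 6 was the only BPH_Cmpd17b library inside the range of BPN_Cmpd17b. The difference was -1.28 ± 0.423 (edgeR adjusted p = 0.042), and -1.61 in batch 1 alone (edgeR adjusted p = 0.0103). The call ended with H2-DMb1 and H2-DMb2 summed (-0.82 ± 0.345, edgeR adjusted p = 0.122), with no batch term (edgeR adjusted p = 0.0551), with all 26 libraries (edgeR adjusted p = 0.0705), with no filter on low counts (edgeR adjusted p = 0.0592), and without any 1 of 10 libraries: each of the 5 BPN_Cmpd17b libraries, BPH_vehicle replicate 1 and BPH_Cmpd17b replicates 1, 2, 3 and 5.

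H2-DMa and Ciita showed no strain difference that passed the test under Cmpd17b. H2-DMa was at 2.01 to 3.29 CPM in BPN_Cmpd17b and at 1.76 to 4.74 CPM in BPH_Cmpd17b, with a difference of 0.08 ± 0.268 (edgeR adjusted p = 0.907). Ciita was at 0.924 to 1.59 CPM in BPN_Cmpd17b. In BPH_Cmpd17b it was at 0.686, 0.445, 0.436, 1.71, 0.247 and 3.11 CPM, with replicate 6 the highest of all 25 libraries. The Ciita difference was -0.23 ± 0.434 (edgeR adjusted p = 0.811).

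Cmpd17b itself was not associated with a called change in any class II gene. In BPN/3J, 0 of 7 members passed the test, with log2 differences, Cmpd17b minus vehicle, from -0.44 for H2-DMa to 0.32 for H2-DMb1. In BPH/2J, 0 of 7 passed, with differences from 0.07 for H2-Eb1 to 0.29 for H2-DMb1. The background was the same: edgeR called 0 of 15543 genes (0%) in both comparisons, with 1506 genes in BPN/3J and 287 in BPH/2J at an unadjusted p under 0.05. DESeq2 called 1 gene in BPN/3J and 0 in BPH/2J, and limma voom called 0 in both.

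The intervals bound how large a drug effect these libraries could have missed. For Cd74 the 95% interval of the Cmpd17b effect ran from -0.927 to 0.57 in BPN/3J and from -0.509 to 0.902 in BPH/2J. For H2-Ab1 it ran from -0.944 to 0.558 in BPN/3J and from -0.531 to 0.904 in BPH/2J. In BPH/2J the small positive values rested on single mice: without replicate 4 or without replicate 6 of BPH_Cmpd17b the effect turned negative for Cd74, H2-Aa, H2-Ab1, H2-Eb1 and Ciita, with Cd74 reaching -0.17. It turned negative for H2-DMa and H2-DMb1 without replicate 6, and for H2-Eb1 also without BPH_vehicle replicate 1, 4 or 5. The difference of the Cmpd17b effect between the strains was called for none of the 7 members by edgeR, nor for any gene (0%; 595 genes at an unadjusted p under 0.05; 0 by DESeq2 and by limma voom). Among the members it was largest for H2-DMa, at 0.63 ± 0.352 (edgeR adjusted p = 0.917), and for Cd74 it was 0.38 ± 0.496 (edgeR adjusted p = 0.926).

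Levels spread widely among BPH/2J mice. Over both treatments, Cd74 ran over a 2.30-fold range in the 12 BPN/3J libraries and a 4.91-fold range in the 13 BPH/2J libraries. H2-Ab1 ran over 1.99-fold and 7.21-fold, and H2-Eb1 over 2.05-fold and 6.66-fold. H2-DMb1 spread 2.36-fold in BPN/3J and 8.50-fold in BPH/2J, and Ciita 2.39-fold and 12.6-fold. Without BPH_Cmpd17b replicate 6 the range of Ciita in BPH/2J was 6.92-fold. H2-DMa ran over 3.37-fold in BPN/3J, or 2.01-fold without BPN_vehicle replicate 7, and over 2.81-fold in BPH/2J, with an SD of log2 CPM of 0.434 and 0.444 over all libraries of the strains. These ranges describe the libraries, and the difference in spread between strains was not tested. The 7 members summed to 28.3 to 148.2 CPM in the BPH/2J libraries and to 94.3 to 190.6 CPM in the BPN/3J libraries. The 4 BPH/2J libraries with the highest sums were replicates 2 and 3 of BPH_vehicle, at 116.4 and 94.5 CPM, and replicates 4 and 6 of BPH_Cmpd17b, at 137.6 and 148.2 CPM. Of these 4, only BPH_Cmpd17b replicate 6 was in batch 2.

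Ratios of 2 genes within a library show whether members differed by unequal amounts. Whether both genes of a ratio came from the same cells was not tested, and a ratio can also differ with the mix of cell types. The log2 ratio of each pair was compared with an exact two-sided permutation test, adjusted over 24 tests, 6 ratios in 4 comparisons. The ratio of the 2 I-A chains, H2-Aa over H2-Ab1, was 0.29 ± 0.176 (SD, n = 7) in BPN_vehicle and 0.30 ± 0.202 (n = 7) in BPH_vehicle. That of the I-E to the I-A beta chain, H2-Eb1 over H2-Ab1, was -0.06 ± 0.213 and -0.08 ± 0.206 in the same groups. These ratios differed by 0.01 and -0.01 between the strains under vehicle, well under the spread between mice. Under Cmpd17b H2-Aa over H2-Ab1 differed by -0.105 (exact permutation p = 0.403, adjusted p = 0.568). H2-Eb1 over H2-Ab1 differed by -0.271 there (exact permutation p = 0.0476, adjusted p = 0.143). Under vehicle again, the third ratio was as follows. Cd74 over H2-Ab1 differed by -0.15 (exact p = 0.129, adjusted p = 0.343).

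H2-DMa and Ciita departed from this proportion. H2-DMa over H2-Ab1 was -2.57 ± 0.204 in BPN_vehicle and -1.97 ± 0.29 in BPH_vehicle, so that H2-DMa was higher relative to the I-A chain in BPH/2J by 0.60 (exact permutation p = 0.00117, adjusted p = 0.014, with 6 of 7 BPH_vehicle libraries above all of BPN_vehicle). Under Cmpd17b the same ratio differed by 0.89 (exact permutation p = 0.00866, adjusted p = 0.0519). Ciita over Cd74 was -5.82 ± 0.509 in BPN_vehicle and -4.67 ± 0.512 in BPH_vehicle. It was higher in BPH/2J by 1.16, in 7 of 7 libraries, with the smallest p the exact permutation test can give (0.000583, adjusted p = 0.014). Under Cmpd17b it differed by 0.67 (exact permutation p = 0.0216, adjusted p = 0.0742). The ratio of the 2 DM chains, H2-DMb1 over H2-DMa, passed under Cmpd17b and not under vehicle, and whether the strain difference itself changed with treatment was not tested. Under vehicle it was -1.31 ± 0.427 in BPN_vehicle and -2.03 ± 0.566 in BPH_vehicle, a difference of -0.73 (exact permutation p = 0.0163, adjusted p = 0.0707). Under Cmpd17b it was -0.67 ± 0.283 (SD, n = 5) in BPN_Cmpd17b and -2.01 ± 0.399 (n = 6) in BPH_Cmpd17b, a difference of -1.34 (exact permutation p = 0.00216, the smallest possible, adjusted p = 0.0173). In batch 1 alone these 3 called ratios kept their direction with adjusted p of 0.0762, 0.0635 and 0.0635 (exact permutation tests), the last 2 at the smallest p that 5 against 5 libraries allow (0.00794 before adjustment). How reads were divided between H2-DMb1 and H2-DMb2 also enters the last. No ratio differed between Cmpd17b and vehicle after adjustment in either strain.

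**Figure D3:**
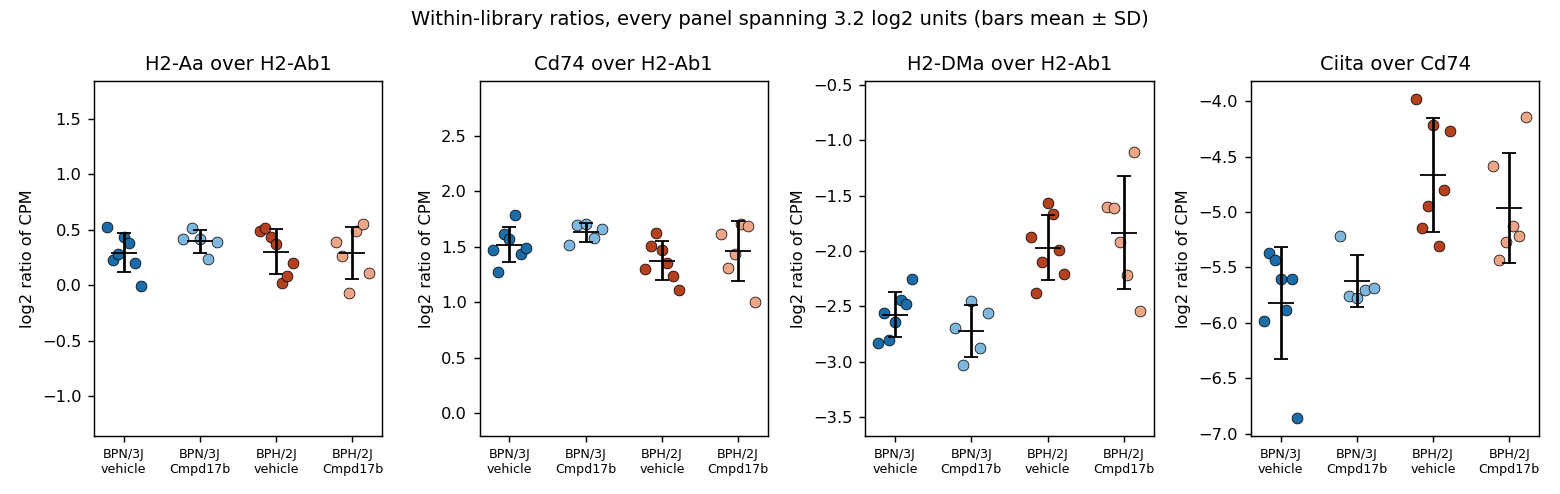
Log2 ratios of CPM within each library for H2-Aa over H2-Ab1, Cd74 over H2-Ab1, H2-DMa over H2-Ab1 and Ciita over Cd74, with points for single mice and bars for the mean ± SD of each group (n = 7, 5, 7 and 6). The first pair of panels is level across groups, while H2-DMa over H2-Ab1 rises from a mean of -2.57 in BPN_vehicle to -1.97 in BPH_vehicle and Ciita over Cd74 from -5.82 to -4.67.

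The rest of the pathway was read from fixed lists. Of 6 other class II molecules listed, 3 could be tested, and 1 was called lower in BPH/2J under vehicle: H2-DMb2, the second DM beta chain gene, at -1.25 ± 0.303 (edgeR adjusted p = 0.00342), from 1.11 to 2.96 CPM in BPN_vehicle against 0.323 to 1.21 CPM in BPH_vehicle. H2-Ob, a beta chain of the DM inhibitor H2-O, differed by -0.54 (edgeR adjusted p = 0.229). Under Cmpd17b 0 of the 3 were called.

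Among 11 listed genes, transcription factors of class II genes and a relative of CIITA, 1 was called lower and none higher under vehicle. It was Nlrc5, the relative of CIITA that switches on class I genes, at 3.02 to 10.9 CPM in BPN_vehicle against 1.57 to 2.97 CPM in BPH_vehicle, with all 7 BPN_vehicle libraries above every BPH_vehicle library. Its difference was -1.39 ± 0.336 (edgeR adjusted p = 0.00373), and under Cmpd17b -0.96 ± 0.377 (edgeR adjusted p = 0.0966). None of Rfx5, Rfxank, Rfxap, Creb1, Nfya, Nfyb and Nfyc, which encode the proteins that bind the X and Y boxes, was called, with differences under vehicle from -0.10 to 0.18. Of 8 tested genes of the interferon gamma pathway that feeds Ciita, 0 were called in either strain comparison, with differences under vehicle from -0.307 for Irf1 to 0.03 for Ifngr2.

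Of 11 genes for invariant chain cleavage and antigen processing, 1 was called higher and none lower. Sppl2a, the protease that removes the last membrane stub of CD74, was higher in BPH/2J by 0.32 ± 0.0629 under vehicle (edgeR adjusted p = 0.000303) and by 0.24 ± 0.0719 under Cmpd17b (edgeR adjusted p = 0.0232). Ctss, the cathepsin that makes the final cuts of the invariant chain in most presenting cells, differed by -0.17 ± 0.189 under vehicle (edgeR adjusted p = 0.595), at medians of 11.5 CPM in BPN_vehicle and 10.9 CPM in BPH_vehicle. Of 5 genes for ligands and partners of CD74 at the cell surface, 1 was called: Cd44, the signalling partner, lower by -0.60 ± 0.2 under vehicle (edgeR adjusted p = 0.0348). Of 5 tested costimulation genes, 2 were called lower under vehicle, Cd274, which encodes the inhibitory ligand PD-L1, at -0.67 ± 0.216 (edgeR adjusted p = 0.0292) and Icosl at -0.38 ± 0.111 (edgeR adjusted p = 0.0164), and Cd80 and Cd86 were not called. Under Cmpd17b 0 of the partners and 0 of the costimulation genes were called.

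MHC class I presents peptides from inside the cell, and its heavy chains and processing genes are encoded beside class II, with the light chain gene B2m elsewhere. Under vehicle 6 of 7 were called lower in BPH/2J, with H2-K1 at -0.96 ± 0.188 (edgeR adjusted p = 0.000441), B2m at -0.91 ± 0.19 (edgeR adjusted p = 0.000855), Tap1 at -0.87 ± 0.211 (edgeR adjusted p = 0.00387) and H2-D1 at -0.79 ± 0.158 (edgeR adjusted p = 0.000481). Under Cmpd17b 3 of 7 were called lower, H2-K1, H2-D1 and B2m. The median of the 7 was -0.789 under vehicle and -0.454 under Cmpd17b. No list gene was called for the drug in either strain.

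Cell type markers were counted beside these results. Under vehicle 0 of 8 tested dendritic cell markers, 0 of 8 B cell markers and 0 of 5 pan-leukocyte markers were called between strains. The 11 dendritic cell markers summed to 19.5 to 37.2 CPM in BPN_vehicle and 17.8 to 25 CPM in BPH_vehicle. The 5 leukocyte markers summed to 23.4 to 37.5 CPM and 22.6 to 33.5 CPM, and the 18 macrophage and monocyte markers to 152 to 240 CPM and 143 to 198 CPM. The 9 B cell markers found summed to 3.54 to 6.06 CPM and 3.64 to 5.31 CPM. No defining marker of these types was at 0 throughout a group. Zbtb46, which endothelial cells also express, made up most of the dendritic cell sum, with a mean of 18.4 of 23.3 CPM in BPN_vehicle.

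BPN_vehicle replicate 7, the library with the highest Cd74, H2-Ab1 and H2-DMa, also stood apart in markers of other cells. Its endothelial markers summed to 1163 CPM, against 385 to 591.8 CPM in the other 24 libraries. Its adipocyte sum was 1392 CPM, with the next highest library at 626.9 CPM, and its fibroblast sum was 2695 CPM, with the next at 2044 CPM. The thymus and lymph node sum was 52.8 CPM in it and 50.4 CPM in the next library, and its limma voom quality weight was 0.0799. The part of these cells in its class II levels was not tested, and the H2-Aa and H2-Ab1 calls ended without it. Across all libraries 0 of 6 endothelial markers were called between strains. Of 6 fibroblast markers 1 was called in both strain comparisons, Gsn, which encodes the actin-severing protein gelsolin, at -0.58 under vehicle (edgeR adjusted p = 5.14e-05). Ccl21a, a chemokine of lymphoid tissue and lymphatic vessels, was the 1 tested gene of the thymus and lymph node list, at 0.86 under vehicle (edgeR adjusted p = 0.0668), and it was higher in BPH/2J by 1.35 under Cmpd17b (edgeR adjusted p = 0.0161).

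Of the 18 macrophage and monocyte markers, 1 was called higher under vehicle, Mrc1, the mannose receptor, by 0.32 ± 0.0999 (edgeR adjusted p = 0.0253), and 1 lower, Mertk, a receptor for dying cells, by -1.49 ± 0.16 (edgeR adjusted p = 3.53e-08). Under Cmpd17b 3 were called lower, among them Mertk and Timd4, beside 6.65% of all genes called lower. Of the 18 markers, 10 had positive differences and 8 negative under Cmpd17b, with a median of 0.0711. Of 5 tested T cell markers 1 was called, Cd4, which encodes the coreceptor for class II and is also expressed outside T cells. It was lower by -1.27 ± 0.267 under vehicle (edgeR adjusted p = 0.000783) and by -0.99 ± 0.297 under Cmpd17b (edgeR adjusted p = 0.0228). Under vehicle 3 of the 5 had positive differences and 2 negative, with a median of 0.155. Under Cmpd17b 1 was positive and 4 were negative, with a median of -0.673.

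Cd74 was also set against these sums within each library, a calculation chosen after the values were seen and adjusted over 12 tests. Cd74 over the leukocyte sum was 1.09 ± 0.225 (SD, n = 7) on the log2 scale in BPN_vehicle and -0.14 ± 0.476 (n = 7) in BPH_vehicle, lower in BPH/2J by 1.23 with all 7 BPN_vehicle libraries above every BPH_vehicle library (exact permutation p = 0.000583, the smallest possible, adjusted p = 0.0035). Over the macrophage and monocyte sum the difference was -1.16 (exact permutation test, adjusted p = 0.00466), and over the dendritic cell sum, most of it Zbtb46, -1.22 (exact permutation test, adjusted p = 0.0035). Without Zbtb46 in that sum it was -1.28 (exact permutation p = 0.000583, adjusted over 4 tests p = 0.00233). The largest part of the reduced sum was Clec10a, with a mean of 2.14 CPM in BPN_vehicle and 2.68 CPM in BPH_vehicle. The other dendritic cell markers had means under 1 CPM in both groups. Under Cmpd17b the differences were -1.26 for leukocytes (adjusted p = 0.013), -1.13 for macrophages (adjusted p = 0.026) and -1.13 for dendritic cells (adjusted p = 0.0649), all by exact permutation tests. Without Zbtb46 the dendritic cell difference under Cmpd17b was -1.21 (exact permutation p = 0.013, adjusted over 4 tests p = 0.026). In CPM the strain difference of Cd74 under vehicle was -1.18. Each sum mostly reflects its most abundant genes, and whether it follows the number of class II presenting cells was not tested.

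Within each strain most members varied together from mouse to mouse. Correlations with Cd74 were computed on log2 CPM over the 12 BPN/3J and the 13 BPH/2J libraries, both treatments joined, with permutation p-values adjusted over 26 relations. In BPH/2J, Pearson's r with Cd74 was 0.973 for H2-Aa (Spearman's rho 0.973), 0.961 for H2-Ab1 (rho 0.989) and 0.975 for H2-Eb1 (rho 0.956), each with the smallest p that 100000 permutations can give (1e-05, adjusted p = 5e-05). H2-DMa followed with r of 0.933 (rho 0.967, permutation adjusted p = 5e-05), H2-DMb1 with 0.883 (rho 0.824, permutation adjusted p = 0.000289) and Ciita with 0.822 (rho 0.841, permutation adjusted p = 0.00121). Without BPH_Cmpd17b replicates 4 and 6, the 2 libraries farthest from the median of Cd74, r was still 0.956 for H2-Aa, 0.957 for H2-Ab1, 0.961 for H2-Eb1, 0.885 for H2-DMa, 0.808 for H2-DMb1 and 0.712 for Ciita. Within batch 1 (n = 10) these values ran from 0.875 for Ciita to 0.983 for H2-Aa.

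In BPN/3J, where Cd74 varied less, r was 0.894 for H2-Aa (rho 0.825, permutation adjusted p = 0.000289), 0.907 for H2-Ab1 (rho 0.902, permutation adjusted p = 9e-05) and 0.87 for H2-Eb1 (rho 0.853, permutation adjusted p = 0.000875). H2-DMa gave r of 0.776 (rho 0.748, permutation adjusted p = 0.00416) and H2-DMb1 0.627 (rho 0.685, permutation adjusted p = 0.0391). H2-DMb1 fell to 0.518 without BPN_vehicle replicates 7 and 2, the 2 farthest, and to 0.405 within batch 1 (n = 10). Ciita gave r of 0.331 (rho 0.51, permutation adjusted p = 0.332), and 0.814 without these 2 libraries. Without BPN_vehicle replicate 7 alone r was 0.774 (rho 0.873), and without replicate 2 alone 0.276 (rho 0.473). Replicate 7 had the highest Cd74 of all 25 libraries, 91.9 CPM, with Ciita at 0.692 CPM. The difference in correlation between the strains was not tested.

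**Figure D4:**
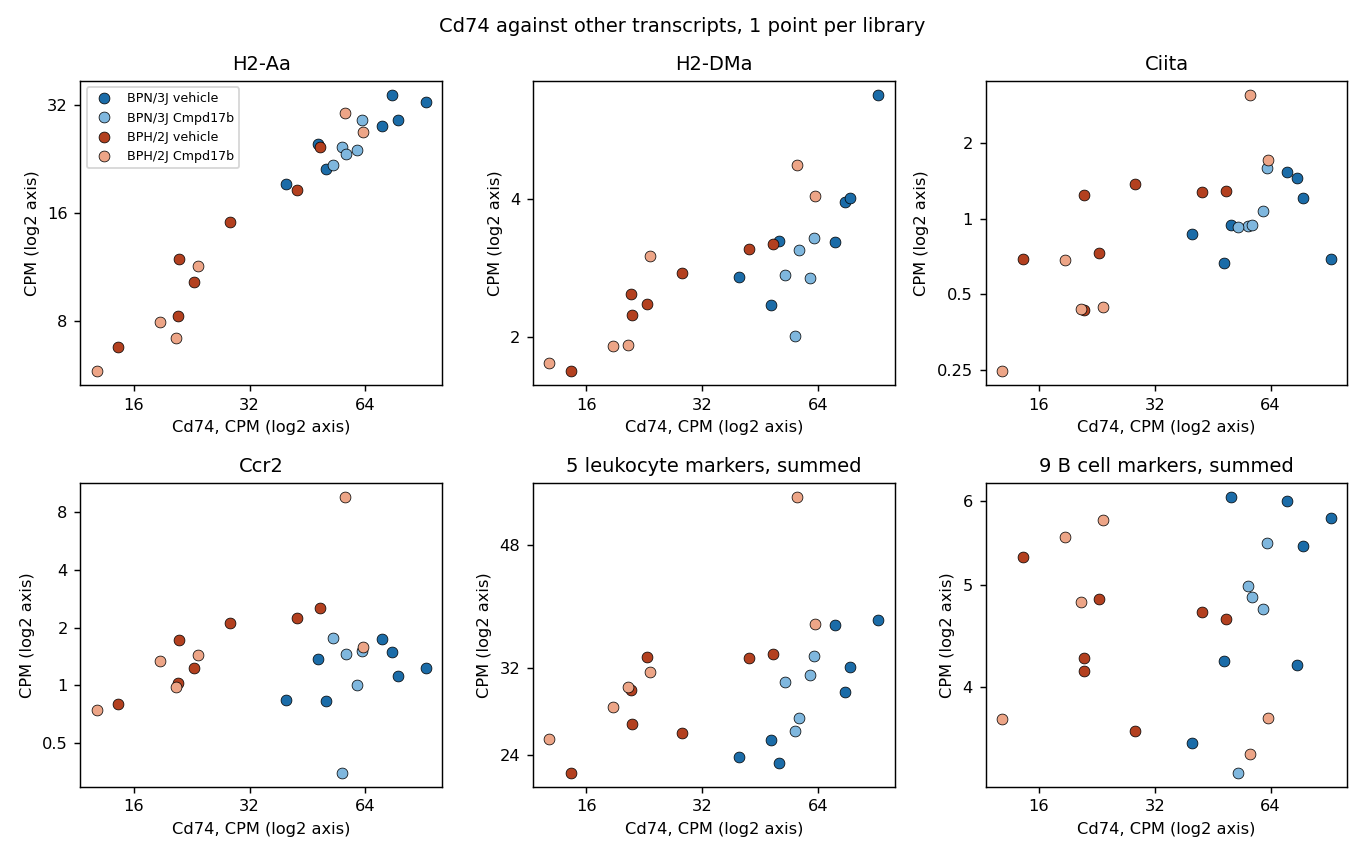
CPM of H2-Aa, H2-DMa, Ciita, Ccr2, 5 summed leukocyte markers and 9 summed B cell markers (vertical axes, log2 scale) against Cd74 CPM (horizontal axes, log2 scale), 1 point per library, coloured by group. H2-Aa rises with Cd74 within each strain (r of 0.894 in BPN/3J and 0.973 in BPH/2J), whereas the B cell sum shows no rise with Cd74 in BPH/2J (r of -0.383).

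Marker sums moved with Cd74 to different degrees. The leukocyte sum gave r of 0.78 in BPH/2J (rho 0.813, permutation adjusted p = 0.000875) and 0.827 in BPN/3J (rho 0.839, permutation adjusted p = 0.00197). The macrophage and monocyte sum gave r of 0.761 in BPH/2J (permutation adjusted p = 0.0031), with rho of 0.555 (permutation adjusted p = 0.0767). Its r was 0.488 without BPH_Cmpd17b replicates 4 and 6, and 0.718 within batch 1 (n = 10), which lacks replicate 6. In BPN/3J its r was 0.497 (rho 0.524, permutation adjusted p = 0.12). The dendritic cell sum gave 0.308 (rho 0.275) and the B cell sum -0.383 (rho -0.363) in BPH/2J, neither past the threshold (permutation adjusted p = 0.332 and 0.23). In BPN/3J the dendritic cell sum gave r of 0.661 (permutation adjusted p = 0.023) and rho of 0.573 (permutation adjusted p = 0.0767). Its r was 0.274 without the 2 farthest libraries. The B cell sum gave 0.549 there (rho 0.406, permutation adjusted p = 0.084). The dendritic cell sum was mostly Zbtb46, and its correlation without that gene was not computed. Ctss gave r of 0.808 in BPH/2J (rho 0.907, permutation adjusted p = 0.0001) and -0.0122 in BPN/3J (rho 0.273). Ccr2, the chemokine receptor of recruited monocytes, gave r of 0.759 in BPH/2J (rho 0.852, permutation adjusted p = 0.00136), 0.905 without the 2 farthest libraries, and 0.286 in BPN/3J (rho 0.287, permutation adjusted p = 0.383). In BPH_Cmpd17b replicate 6 the leukocyte sum was 56.3 CPM, Ctss 27.6 CPM and Ccr2 9.69 CPM, each the highest of all 25 libraries. In BPH_Cmpd17b replicate 4 the leukocyte sum was 37.0 CPM, and in replicates 2 and 3 of BPH_vehicle it was 33.5 and 33.1 CPM. The part of leukocyte number in the levels of these 4 libraries was not tested.

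The genes whose pattern was most like that of the members were ranked by Spearman's rho with the mean of the 7 members over 25 libraries, after strain, treatment and batch means were removed, among 12619 genes of at least 1 CPM on average. H2-Ea came first with rho of 0.948. Next were Ahnak2 (0.854), Ccr2 (0.845), Myo1g (0.822), Ptpro (0.82), Itgb2 (0.808), Lilrb4a (0.801), Apobec1 (0.791), Cd52 (0.772) and Lair1 (0.77). Itgb2 encodes the beta chain of leukocyte integrins, Cd52 a leukocyte surface peptide, Myo1g a myosin of blood cells, and Lilrb4a and Lair1 inhibitory receptors of myeloid and other immune cells. Points of 1 library share depth and cell make-up, and these values are a description with no test. Without BPN_vehicle replicate 7 the same 10 genes held ranks of 1 to 19. Their strain differences were not alike: under vehicle Ahnak2 was lower in BPH/2J by -2.20 ± 0.234 (edgeR adjusted p = 5.75e-08), whereas Ccr2 differed by 0.40 ± 0.405 (edgeR adjusted p = 0.559). Among the listed pathway genes, Ctss ranked 23rd (rho 0.729), H2-K1 30th (0.715), Cd44 77th (0.662), Irf8 105th (0.637) and Spi1 144th (0.618), while Rfx5 ranked 459th (0.495) and Nfyc 11281st (-0.36).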

How the data were processed

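The values are expected counts per gene, deposited by the authors as 1 table of 26 left ventricle libraries. The submitters' processing notes name Trim Galore 0.6.7, STAR 2.7.9a and the build GRCm39 (mm39). How reads were counted, with which strand setting and annotation, is not given in the sources used here, and values of overlapping and near-identical genes are uncertain. An Aurum kit and paired NovaSeq6000 reads were used, per the labels' protocols. The labels give groups and batch, and replicates are numbered in sample order.

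Expected counts were rounded. Genes were kept by filterByExpr on the 4 groups, scaled by TMM and tested with edgeR 4.0.16 (quasi-likelihood F-test, robust; R 4.3.3) on group plus batch with 25 libraries in 1 fit. The batch effect in BPN_Cmpd17b, which had batch 1 only, therefore comes from the rest. Benjamini-Hochberg adjustment ran over the 15543 genes tested, with a threshold of 0.05. The SE is the log2 difference over the square root of F. "Above all" counts are of libraries in the higher group above every library of the lower. Ratios used a pseudocount of 0.1 CPM. Motifs were searched on both strands, and the letters of the X1 core and the Y box cannot overlap. The fit was tested on simulated counts.

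Named genes are all 7 members, up to 4 called genes of each pathway list, up to 2 of each marker list, H2-Ea, Ctss and the 10 most alike genes; other list genes named were chosen after their values were seen. The members and lists were chosen with earlier results of these data known. Alternatives were RLE scaling, DESeq2 1.42.0, limma 3.58.1 voom with quality weights, other filters, no batch term, and other sets of libraries, and others were chosen after seeing the data: H2-DMb1 summed with H2-DMb2, Cd74 relative to marker sums (also without Zbtb46), and ranges or correlations within batch 1 or without the farthest libraries.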

Additional observations from a re-analysis of the deposited data

Results flagged for a closer look

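In 28 sets of values, 7 genes in 4 groups, 2 single libraries stood apart from the rest of their group, where chance alone marks about 1 in 20. H2-DMa was 6.77 CPM in BPN_vehicle replicate 7, with the next highest library of that group at 4.04 CPM. Ciita was 1.59 CPM in BPN_Cmpd17b replicate 1, with the next at 1.08 CPM.

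The library labelled BPH_Cmpd17b replicate 7, left out for its kidney profile, also held class II transcripts. Its Ciita was 1.68 CPM, above the highest BPH_vehicle library, at 1.40 CPM on the same scaling, and below the highest of the other 25 libraries, at 3.12 CPM. Its Cd74 was 31.6 CPM, its H2-Aa 13.1 CPM and its H2-Ab1 10.9 CPM, all likewise within the range of the other 25 libraries.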

How the results depend on the processing

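Under vehicle the strain difference kept its sign in all 77 alternatives outside single-library omissions (7 members, 11 settings), and 69 of these also kept their side of the threshold. Cd74 and H2-DMb1 were called in all 11 settings and all 25 single-library omissions. The number of members called, 4, became 2 with no filter on low counts and ran from 2 to 5 over the omissions, with 2 without BPN_vehicle replicate 7 or BPH_vehicle replicate 1, 4 or 5. Ciita reached 0.006182 without BPN_vehicle replicate 3 (range from -0.3244). Under Cmpd17b the number called, 1, became 0 with no filter, with no batch term, with all 26 libraries or with H2-DMb1 counted together with H2-DMb2, 3 without BPN_vehicle replicate 7 and BPH_Cmpd17b replicate 6, and 5 with limma voom. Over the omissions it ran from 0 to 3, with 2 without BPH_Cmpd17b replicate 4, 3 without replicate 6, and 0 without any 1 of the 10 libraries named in the text. H2-DMa in that comparison turned to -0.13 in batch 1 alone, -0.12 without the 2 libraries of low weight, -0.13 with only the groups compared and -0.14 with limma voom, and ran from -0.1273 to 0.1944 over the omissions. Ciita was 0.022 with no batch term. Over all genes, calls were 1492 rather than 2936 under vehicle and 1195 rather than 2197 under Cmpd17b with all 26 libraries, and 3405 under Cmpd17b with limma voom. The number of genes called for the drug in BPN/3J was 1 by DESeq2 and 0 by edgeR. The cause of these shifts was not tested.

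The Cmpd17b effect in BPH/2J turned negative in 21 of 77 alternatives. In batch 1 alone it was -0.20 for H2-Aa, -0.22 for H2-Ab1, -0.33 for H2-Eb1, -0.018 for H2-DMa, -0.12 for H2-DMb1, -0.11 for Cd74 and -0.31 for Ciita. With limma voom it was -0.22 for H2-Aa, -0.26 for H2-Ab1, -0.41 for H2-Eb1, -0.039 for H2-DMa, -0.048 for H2-DMb1, -0.20 for Cd74 and -0.48 for Ciita. Without the 2 libraries of low weight it was -0.24 for H2-Aa, -0.26 for H2-Ab1, -0.37 for H2-Eb1, -0.077 for H2-DMa, -0.18 for H2-DMb1, -0.15 for Cd74 and -0.48 for Ciita. Over the omissions it ran from -0.1721 to 0.3781 for Cd74, -0.4691 to 0.2983 for Ciita, -0.2485 to 0.3628 for H2-Aa, -0.2878 to 0.3662 for H2-Ab1, -0.112 to 0.295 for H2-DMa, -0.1865 to 0.5564 for H2-DMb1 and -0.3803 to 0.3228 for H2-Eb1. In BPN/3J, Ciita was -0.084 in batch 1 alone, -0.091 with only the groups compared and -0.026 without the 2 libraries of low weight, H2-DMb1 counted with H2-DMb2 was -0.17, and H2-Eb1 ran from -0.2194 to 0.001109. The interaction of Cd74 was -0.13 with limma voom. None of these passed the test.

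Among the ratios, all by exact permutation tests, the called values became 0.584 (H2-DMa over H2-Ab1, vehicle), -1.461 (H2-DMb1 over H2-DMa, Cmpd17b) and 0.996 (Ciita over Cd74, vehicle) in batch 1 alone and no longer passed. With 5 against 5 libraries the smallest exact p is 0.00794. It was reached by 3 of the 24 tests, among them the last 2 of these ratios, and became 0.0635 after adjustment. That adjusted value depends on how many of the tests reach the smallest p. H2-DMa over H2-Ab1 under Cmpd17b passed with all 26 libraries (0.836), and Ciita over Cd74 under Cmpd17b passed with a pseudocount of 1 CPM (0.923). Ratios near 0 changed sign: H2-Aa over H2-Ab1 was -0.002 between strains under vehicle with a pseudocount of 1 CPM and 0.041 for the drug in BPH/2J in batch 1, H2-Eb1 over H2-Ab1 was 0.005 under vehicle in batch 1, and H2-DMb1 over H2-DMa for the drug in BPH/2J was -0.037 in batch 1 and -0.012 with a pseudocount of 1 CPM. Over the omissions, H2-Aa over H2-Ab1 ran from -0.04 to 0.057 under vehicle and from -0.064 to 0.061 for the drug in BPH/2J. H2-Eb1 over H2-Ab1 ran from -0.074 to 0.031 under vehicle and from -0.346 to -0.191 under Cmpd17b. H2-DMa over H2-Ab1 ran from 0.742 to 1.03 under Cmpd17b and from -0.01 to 0.278 for the drug in BPH/2J. H2-DMb1 over H2-DMa ran from -1.461 to -1.259 under Cmpd17b (call ended without BPH_Cmpd17b replicate 1, 2, 3 or 5), -0.839 to -0.56 under vehicle, -0.146 to 0.126 for the drug in BPH/2J and 0.522 to 0.733 for the drug in BPN/3J.

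No paired analysis was possible because the labels carry no replicate numbers. H2-DMb1, at 0.202 to 2.13 CPM, and Ciita, at 0.247 to 3.11 CPM, have the lowest counts of the members. Their SEs between strains under vehicle, 0.373 and 0.374, were no larger than that of H2-Eb1 (0.374). How far depth limits these genes was not tested.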
